A study of Mus musculus with 12 samples.

Results

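The genes that encode the receptors for glutamate, GABA and glycine were followed in the ventral tegmental area (VTA), where dopaminergic neurons of the midbrain lie, at 2, 10 and 18 months of age. The members were all probe sets annotated to exactly 1 gene whose symbol begins with Gria, Grik, Grin, Grid, Grm, Gabr, Gabbr, Glra or Glrb, with a number after Grin and Grm and with 1 or 2 after Grid. There were 89 such probe sets of the 45037 tested, for 44 of the 18193 named genes. The symbols also took in Grid2ip, which encodes a scaffold protein that binds a delta receptor and is not itself a receptor, so it was kept apart in its own class. A further 2 probe sets were listed with several genes and were not used.

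Whole VTA was dissected from C57BL/6 mice (given as C57 in the labels) of wild type genotype aged 2 months (young), 10 months (middle aged) or 18 months (late middle-aged), with no other treatment. RNA of 5 mice was pooled for each array and hybridised to an Affymetrix mouse expression array, 4 arrays per age. Arrays 3 and 4 of 2 months were closer to each other than any other pair of arrays of 1 age and were counted as 1 sample, so the ages of 2, 10 and 18 months had 3, 4 and 4 samples. Since each sample was a pool, the p-values speak of the spread among pools, and the spread among individual mice is unknown. Values are RMA log2 expression values, so a difference of 1 is a doubling, and only values of the same probe set are compared.

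Glutamate excites neurons through ionotropic channels of the AMPA, kainate and NMDA types and tunes them more slowly through metabotropic receptors that act through G proteins. GABA and glycine inhibit neurons through chloride channels assembled from 5 subunits each, and GABA also acts through the metabotropic GABA-B receptor. In the VTA, dopaminergic cells receive glutamate input from many regions and GABA input from local and distant neurons, and these receptors set how much they fire. A tissue level of a receptor mRNA is the sum over all cell types, and fewer cells of a type cannot be told apart from less RNA per cell.

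The markers of the dissected tissue were present, with Th, the rate-limiting enzyme of dopamine synthesis, at a mean log2 level of 13.61 and the dopamine transporter Slc6a3 at 14.03. At 18 against 2 months 8.82% of all genes were called at their brightest probe set. Of 16 dopaminergic genes, Th (0.84 ± 0.14) and Chrna6 (0.68 ± 0.15) rose and Foxa2 (−0.61 ± 0.15) and En1 (−0.54 ± 0.11) fell, 25.0% of the list. Of 16 microglial genes, 6 were higher (37.5%), the mean level of the list running from 8.78 to 9.13 in the 18 months samples and from 8.21 to 8.49 in the 2 months samples. Of 14 astrocyte genes, 2 were higher (14.3%, with list means of 11.33 to 11.60 at 18 months, 11.03 to 11.15 at 2 months), and of 13 general neuron genes, 3 were higher and 1 was lower (30.8%, with list means of 11.83 to 12.16 at 18 months, 11.44 to 11.79 at 2 months). Of 11 oligodendrocyte genes, 2 were higher (18.2%, with list means of 11.59 to 11.71 at 18 months, 11.50 to 11.57 at 2 months). No gene was called of 10 for GABAergic neurons, 6 for glutamatergic neurons and 9 for oligodendrocyte precursors. In 3 lists 1 gene was lower: vessels (7.69%), cerebellar granule cells (12.5%), and cortex and hippocampus (12.5%). In the choroid plexus list 1 of 7 was higher (14.3%). The difference between 3′ and 5′ probe sets of the control genes Actb and Gapdh was 1.64 to 2.17 in the 18 months samples and 1.69 to 2.44 in the 10 months samples, against 3.29 to 3.63 in the 2 months samples, with no overlap with the young samples. The mean of the added poly-A control RNAs was 6.23 to 6.89 on the 18 months arrays and 5.92 to 6.08 on the 10 months arrays, against 5.64 to 5.83 on the 2 months arrays, so that it parted all 3 ages. The first principal component, with 43.8% of the variance, placed array 2 of 2 months, array 3 of 10 months and arrays 2 and 4 of 18 months on its positive side. The part of these differences in the results below cannot be told apart from age where they separate the ages, and limma called no member once the 3′ to 5′ difference entered the fit as a covariate, nor any other probe set. In that fit 7 members had an unadjusted p under 0.05 at 18 against 2 months (7.87%, against 3.88% of all probe sets), and without the covariate 25 had (28.1%, against 23.6%). At the brightest probe set, 21 of the 44 genes had a change of the other sign with the covariate. As the covariate itself parted the young samples from the others, SEs were larger in that fit (for Grm8 0.74, against 0.28 without it). The directions of these 21 genes were therefore not settled by it.

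As a family, the receptor genes were called about as often as the rest of the array. A probe set was called when the Benjamini-Hochberg adjusted p of limma over all 45037 probe sets was under 0.05 and the change exceeded 1.3-fold. At 18 against 2 months, 6 of 89 probe sets were called (6.74%, against 7.46% of all probe sets), 4 of them higher (4.55% of all probe sets were) and 2 lower (2.91% of all probe sets were). The median log2 change was −0.05 over the 44 genes, each at its brightest probe set, and −0.02 over all genes. At that probe set 4 of the 44 genes were called (9.09%, against 8.82% of all genes), and of the 56 receptor probe sets above the median level of 6.16, 6 were called (10.7%, against 12.5%). The 18 months samples did not overlap with the 2 months samples at 24 probe sets, 14 with higher and 10 with lower values (27.0%, against 23.6% of all probe sets).

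At 10 against 2 months, 1 of 89 probe sets was called, lower (1.12%, against 1.36% of all probe sets), and 8 did not overlap between the ages (8.99%, against 12.6%). At 18 against 10 months limma called none of the 89, 7 had an unadjusted p under 0.05 (7.87%, against 5.06% of all probe sets), and 1 probe set of the whole array was called (0.00222%). Between those ages 4 receptor probe sets did not overlap (4.49%, against 2.73%). Both comparisons with 2 months use the same 3 young samples.

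**Figure D1:**
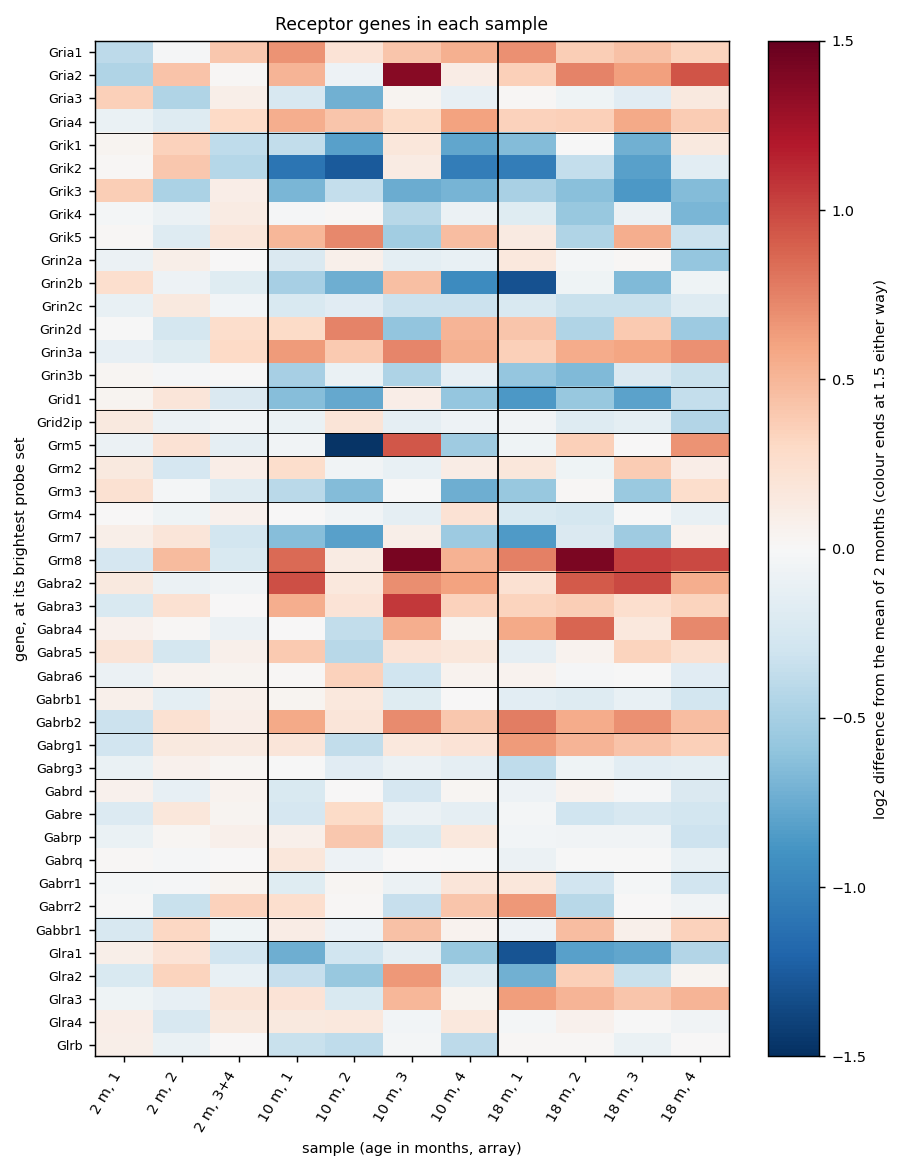
Log2 difference of each of the 44 genes, at its brightest probe set, from the mean of the 2 months samples, in all 11 samples (columns, by age in months and array; vertical lines part the ages and horizontal lines the receptor classes; red is higher and blue lower). Gria2 read 11.64 in array 3 of 10 months, its highest sample, and Grm5 ran from 7.11 to 9.50 within 10 months.

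The 6 probe sets called at 18 against 2 months belonged to 6 genes of 4 receptor kinds: Grin3a (NMDA), Grm5 and Grm8 (metabotropic glutamate), Gabrb2 and Gabrg1 (GABA-A) and Glra1 (glycine). Promoters are shown for Gabrb2 and Grm8, the genes higher at their brightest probe set that have an entry in the RefSeq promoter table used here, each for the start that lies farthest upstream. The capitals mark GGGCGG, the GC box, and TATAAA, the TATA box, each searched on both strands. The motifs do not overlap one another. Both are the 250 bases before the start in build GRCm38.p6, for Gabrb2 at chr11:42420190-42420439 on the plus strand and for Grm8 at chr6:28135147-28135396 on the minus strand.
Gabrb2: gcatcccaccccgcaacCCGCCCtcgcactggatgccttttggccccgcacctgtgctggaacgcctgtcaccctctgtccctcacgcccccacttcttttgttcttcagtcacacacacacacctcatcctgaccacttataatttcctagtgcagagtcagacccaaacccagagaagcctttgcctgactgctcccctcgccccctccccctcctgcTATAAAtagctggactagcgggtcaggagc
Grm8: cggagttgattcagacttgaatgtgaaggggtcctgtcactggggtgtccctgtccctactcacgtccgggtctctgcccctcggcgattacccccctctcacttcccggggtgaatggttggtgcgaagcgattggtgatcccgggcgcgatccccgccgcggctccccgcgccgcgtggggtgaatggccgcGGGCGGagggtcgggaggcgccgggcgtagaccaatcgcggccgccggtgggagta
The Gabrb2 sequence held 1 GC box and 1 TATA box and had 58.8% GC and 8 CpG, whereas the Grm8 sequence held 1 GC box and no TATA box and had 68.4% GC and 29 CpG. Promoters were listed for 33 of the 44 genes, 41 promoters in all, and 22 of them held a GC box (53.7%, against 32.7% of the 32851 promoters of all genes). The TATA box was in 5 of the 41, against 12.4% of all promoters, and CGTCA, a half-site of the cAMP response element searched on both strands, in 2 of the 41, against 17.8%. The median GC content was 60.4% in the receptor genes and 52.4% in all genes. These motif counts describe the sequence alone and were not compared with the changes.

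Among the AMPA receptor genes, which encode the channels of fast excitation, none of 10 probe sets was called at 18 against 2 months. At the brightest probe sets the log2 changes were 0.66 ± 0.31 (SE, here and below) for Gria2, whose subunit keeps calcium out of the channel, 0.46 ± 0.18 for Gria1, 0.42 ± 0.13 for Gria4 and −0.02 ± 0.21 for Gria3. The class median was 0.44, with 3 of 4 genes positive (4 of 4 after median centring of the arrays). Over all AMPA probe sets 5 changes were positive and 5 negative, among them other probe sets of Gria1 (−0.31 ± 0.32), Gria2 (−0.11 ± 0.13) and Gria3 (−0.64 ± 0.42), and with the 3′ to 5′ covariate the class median was 0.07. At its brightest probe set Gria4 came nearest to the threshold (adjusted p = 0.084), and it was called higher there after median centring (0.48, adjusted p = 0.049). With the 3′ to 5′ covariate the change of Gria4 there was 0.26 ± 0.38. Its brightest probe set, 1435722_at, read 9.64, 9.55 and 10.04 at 2 months, 10.29, 10.15, 10.03 and 10.35 at 10 months, and 10.09, 10.11, 10.32 and 10.12 at 18 months. All 4 late middle-aged samples lay above the 3 young ones. The other probe sets of Gria4 had changes of 0.91 ± 0.41 and −0.81 ± 0.37, so the direction for this gene depended on the probe set. Gria2 overlapped between the ages, with 10.63 to 11.21 at 18 months and 9.82 to 10.70 at 2 months.

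The kainate receptor genes had negative changes at the brightest probe set in 5 of 5 genes at 18 against 2 months (4 of 5 after median centring, where Grik5 was positive), and none was called. The class median was −0.38, and 7 of its 8 probe sets had negative changes. Its median with the 3′ to 5′ covariate was −0.57, with 4 of 5 genes negative. Grik3, a subunit that forms channels of its own, was the nearest to a call, with a change of −0.66 ± 0.18 and an adjusted p of 0.051. Its probe set 1440177_at read 10.53, 9.69 and 10.27 at 2 months, 9.47, 9.81, 9.42 and 9.46 at 10 months, and 9.67, 9.53, 9.30 and 9.51 at 18 months. No 18 months sample reached the lowest young one, though the highest of them, 9.67, came close to array 2 of 2 months, 9.69. Grik3 was called lower when the 12 arrays were kept separate (−0.68), with the close arrays 3 and 4 of 2 months counted as separate samples. Its change was 0.24 with the 3′ to 5′ covariate. Grik2 had changes of −0.59 ± 0.33 at 18 and −0.82 ± 0.33 at 10 against 2 months, with overlap at both ages. The subunits Grik4 and Grik5, which work only in channels with another kainate subunit, had changes of −0.38 ± 0.16 and −0.02 ± 0.30.

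Of the NMDA receptor genes, whose channels need both glutamate and glycine and let calcium in, Grin3a was the only one called. Grin3a encodes a glycine-binding subunit that lowers the calcium flow of the channel. At its brightest probe set, 1436575_at, it had 8.18, 8.12 and 8.60 at 2 months, 8.93, 8.69, 9.03 and 8.83 at 10 months, and 8.65, 8.86, 8.89 and 8.99 at 18 months. Every sample of the later ages lay above every young one, and the later ages overlapped each other. Grin3a rose by 0.55 ± 0.14 at 18 against 2 months (1.46-fold, adjusted p = 0.037), and its change at 10 months was of like size but not called (0.57 ± 0.14, adjusted p = 0.069). The other probe sets of Grin3a had changes of 0.10 ± 0.18 and 0.08 ± 0.13. With the 3′ to 5′ covariate the change was 0.23 ± 0.39, and Grin3a was not called in a fit of only these ages.

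Grin3b, which also encodes a glycine-binding subunit, had a change of −0.45 ± 0.14 (adjusted p = 0.074), with at most 6.45 at 18 months, against 6.70, 6.64 and 6.66 in the young samples. Grin2b, a glutamate-binding subunit that is most prominent early in life, had changes of −0.53 ± 0.35 and −0.87 ± 0.46 at its brighter probe sets, with overlap between the ages. Without the 4 arrays on the positive side of the first component both of these Grin2b probe sets were called lower, by −1.02 ± 0.24 and −1.14 ± 0.20, in a setting chosen after seeing the data. That setting called 8 receptor probe sets lower, also in Gria3, Grik2, Grik3, Grid1, Glra1 and Grm5, and 3 higher. The class median was −0.19, with 5 of 6 genes negative (4 of 6 after median centring). Grin2a was under the lowest of the arrays' lower quartiles (4.48), and no call was made on Grin2c (−0.27 ± 0.10) or Grin2d (−0.05 ± 0.33).

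Grid1, a delta receptor that organises synapses and does not conduct on binding glutamate, had a change of −0.65 ± 0.20 at 18 against 2 months (adjusted p = 0.077). Its brightest probe set read 9.02, 9.31, 9.07 and 9.53 in the 18 months samples, all under the 9.92, 10.07 and 9.66 of the 2 months samples. Its dimmer probe set had a change of 0.16 ± 0.15. Grid2ip had a change of −0.21 ± 0.12 and was not called.

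**Figure D2:**
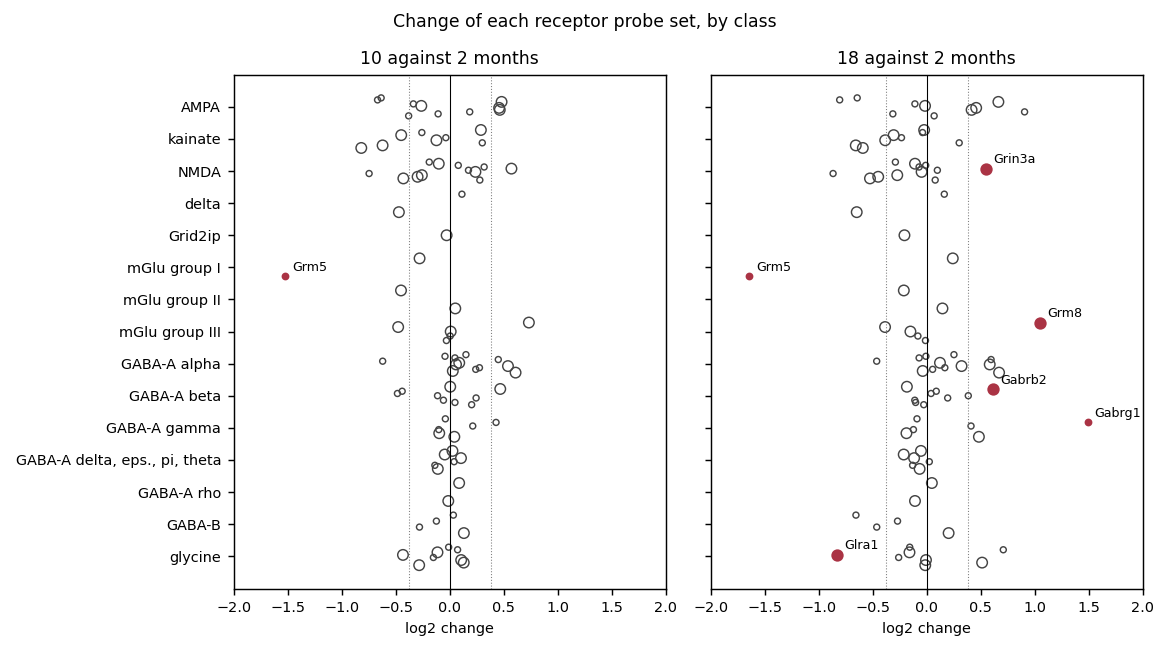
Log2 change of each of the 89 probe sets (points) by receptor class (rows, with mGlu for metabotropic glutamate receptors), at 10 against 2 months (left) and 18 against 2 months (right). Large points are the brightest probe set of a gene, filled points were called, dotted lines mark a 1.3-fold change, and the 6 called at 18 months spread over both directions.

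Among the metabotropic glutamate receptors, 2 probe sets were called at 18 against 2 months, in opposite directions. Grm5, the group I receptor that couples to phospholipase C, at its dimmer probe set, 1456119_at, fell by 1.64 ± 0.25 at 18 against 2 months (adjusted p = 0.0061) and fell by 1.52 ± 0.25 at 10 against 2 months (adjusted p = 0.031). The samples read 7.75, 7.60 and 6.69 at 2 months, 6.01, 5.86, 5.69 and 5.74 at 10 months, and 5.92, 5.15, 5.93 and 5.82 at 18 months. Every later sample lay under every young one, and between 18 and 10 months the change was −0.12 ± 0.23. It was the only member called at 18 against 2 months whichever array was left out. Its change with the 3′ to 5′ covariate was −2.23 ± 0.70, and it was not called in that fit.

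The brightest probe set of Grm5, 1455272_at, did not move in the same way. It read 8.48, 8.80 and 8.44 at 2 months, 8.52, 7.11, 9.50 and 8.04 at 10 months, and 8.51, 8.92, 8.58 and 9.24 at 18 months. The ages overlapped, the change at 18 against 2 months was 0.24 ± 0.42, and the spread within 10 months was larger than either change with age. The fall therefore holds for 1 of the 2 Grm5 probe sets, and which transcripts each detects was not tested.

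Grm8, a group III receptor that acts through inhibitory G proteins, mostly at nerve endings, rose at its only probe set by 1.05 ± 0.28 at 18 against 2 months (2.07-fold, adjusted p = 0.046). It read 5.66, 6.40 and 5.69 at 2 months, 6.76, 6.04, 7.34 and 6.44 at 10 months, and 6.67, 7.33, 6.95 and 6.91 at 18 months. The oldest and the youngest samples did not overlap, and the 10 months samples, with a change of 0.73 ± 0.28, overlapped with both. With the 3′ to 5′ covariate the change was −0.02 ± 0.74. The other group III receptors had changes of −0.15 ± 0.11 (Grm4) and −0.39 ± 0.24 (Grm7), and the group II receptors of 0.15 ± 0.14 (Grm2) and −0.21 ± 0.23 (Grm3), the last of which astrocytes also express. None of these was called.

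The alpha subunits of the GABA-A receptor, which shape the binding sites for GABA and for benzodiazepines, had a class median of 0.32 at 18 against 2 months, with 4 of 5 genes positive (5 of 5 after median centring). With the 3′ to 5′ covariate it was −0.22, with 2 of 5 genes positive. None of the 12 probe sets was called. Gabra2 was nearest, with 7.18, 7.88, 7.94 and 7.50 at 18 months, against 7.10, 6.87 and 6.90 at 2 months (0.67 ± 0.21, adjusted p = 0.076). It was called higher with the 12 arrays kept separate (0.68), a fit that counts the close arrays 3 and 4 of 2 months as separate samples. The change of Gabra2 was −0.35 ± 0.50 with the 3′ to 5′ covariate. Gabra4, found in receptors outside the synapse, had a change of 0.58 ± 0.21 at its brightest probe set and −0.46 ± 0.27 at the other. Gabra3 and Gabra5 had changes of 0.32 ± 0.18 and 0.12 ± 0.19, and both probe sets of Gabra6, known from cerebellar granule cells, lay under the lowest lower quartile of the arrays.

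Gabrb2, a beta subunit of the most common synaptic GABA-A receptors, rose by 0.62 ± 0.16 at 18 against 2 months (1.53-fold, adjusted p = 0.038). Its brightest probe set, 1428203_at, read 10.36, 10.91 and 10.78 at 2 months, 11.25, 10.87, 11.39 and 11.09 at 10 months, and 11.45, 11.25, 11.36 and 11.14 at 18 months. All late middle-aged samples lay above the young ones, and array 2 of 10 months lay among the young. The other 4 Gabrb2 probe sets had changes between −0.03 and 0.38 and were not called, and 2 of these, 1428204_at and 1428205_x_at, had means of 8.34 and 8.35 at 18 months and 8.25 and 8.31 at 2 months. With the 3′ to 5′ covariate the change of the called probe set was −0.03 ± 0.40. Gabrb1 had a change of −0.18 ± 0.11 at its brightest probe set.

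Gabrg1, a gamma subunit with low benzodiazepine sensitivity that astrocytes also express, held the highest change of the 89 probe sets. At its dimmer probe set, 1427227_at, it had 5.89, 5.90 and 5.60 at 2 months, 6.58, 5.15, 6.94 and 6.22 at 10 months, and 7.38, 7.26, 7.04 and 7.45 at 18 months. The 18 months samples lay above all others, while the 10 months samples spread from below the young to near the oldest. The probe set rose by 1.49 ± 0.32 (2.80-fold, adjusted p = 0.021). Its brightest probe set, 1460408_at, read 9.22, 9.65 and 9.64 at 2 months, 9.68, 9.14, 9.66 and 9.71 at 10 months, and 10.14, 10.02, 9.93 and 9.86 at 18 months. There too the oldest samples lay above all others, but the change of 0.48 ± 0.16 was not called (adjusted p = 0.093). At 18 against 10 months the changes were 1.06 ± 0.30 and 0.44 ± 0.15, neither called (adjusted p = 0.85 for both). With the 3′ to 5′ covariate the changes at 18 against 2 months were 0.38 ± 0.86 and 0.04 ± 0.44. The part of the astrocyte list, with 2 of 14 genes higher, in the rise of Gabrg1 was not tested. Among the protein-coding genes of the reference table Gabrg1 adjoins Gabra2, and Gabra4 adjoins Gabrb1, with 1 gene between these pairs. Gabrg3 had a change of −0.19 ± 0.10.

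**Figure D3:**
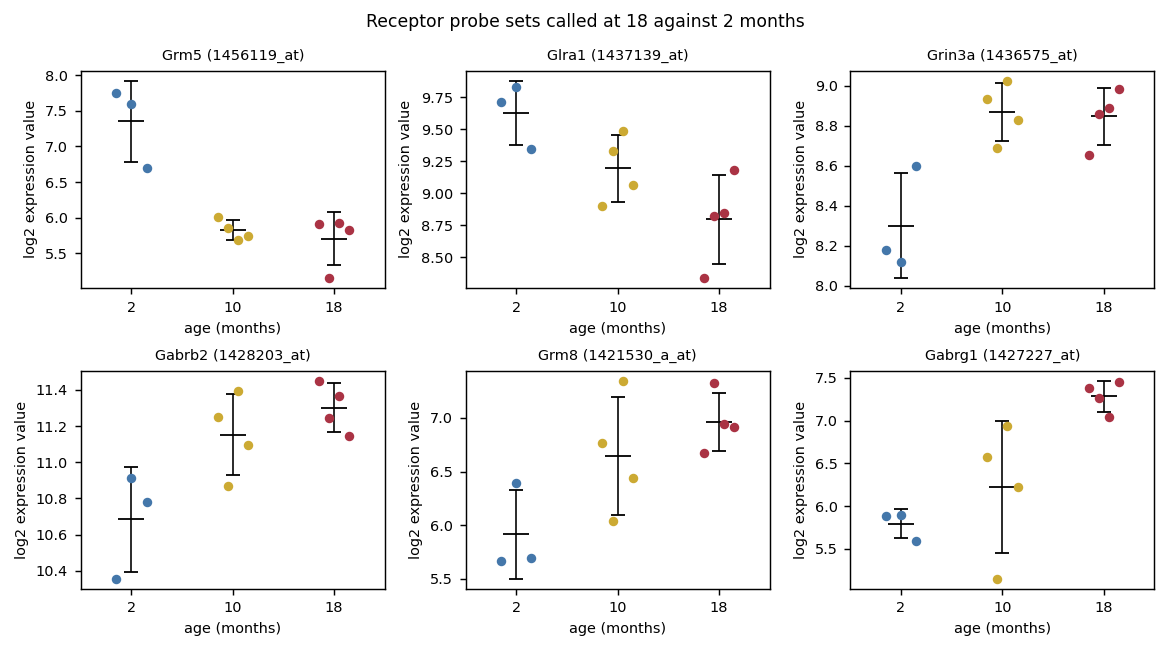
Log2 expression values of the 6 called probe sets in each sample (points) at 2, 10 and 18 months, with mean and SD (bars; n = 3, 4 and 4). The 10 and 18 months samples overlapped in Grm5, Grin3a, Gabrb2, Grm8 and Glra1. Those of Gabrg1 did not, and its 10 months samples ran from 5.15 to 6.94.

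None of the remaining GABA-A subunit genes was called. The delta, epsilon, pi and theta genes had changes between −0.21 (Gabre, ± 0.14) and −0.05 (Gabrq) at their brightest probe sets, negative in 4 of 4 genes but in 3 of 4 after median centring. Gabrd and Gabrq were under the lowest lower quartile of the arrays. The rho subunits, best known from the retina, had changes of −0.11 ± 0.13 (Gabrr1) and 0.05 ± 0.25 (Gabrr2). Gabbr1, the subunit of the GABA-B receptor that binds GABA, had a change of 0.20 ± 0.18 at its brightest probe set, against −0.46 ± 0.15 (adjusted p = 0.078), −0.66 ± 0.29 and −0.27 ± 0.13 at the others, and was not called.

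Glra1, the alpha subunit of the adult glycine receptor in spinal cord and brainstem, fell by 0.83 ± 0.20 at 18 against 2 months (0.56-fold, adjusted p = 0.033). Its brightest probe set, 1437139_at, read 9.71, 9.83 and 9.34 at 2 months, 8.90, 9.33, 9.49 and 9.06 at 10 months, and 8.33, 8.82, 8.85 and 9.19 at 18 months. The 18 months samples lay under all young ones, with 10 months samples between and overlapping both (change against 2 months −0.43 ± 0.20, not called). Its dim probe set had a change of −0.16 ± 0.14. The estimate for Glra1 was nearly the same with the 3′ to 5′ covariate, −0.81, but its SE was 0.59.

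The other glycine receptor genes were not called. Glra3 had a change of 0.51 ± 0.16 (adjusted p = 0.071), with 11.17, 11.05, 10.96 and 11.05 at 18 months, all above the 10.48, 10.42 and 10.74 of 2 months. The changes of Glra1 and Glra3 thus had opposite signs. Glra2, the form known from early development, had a change of −0.16 ± 0.30. Glrb, which anchors the receptor to gephyrin, had a change of −0.01 ± 0.11 at its brightest probe set, 1459850_x_at, whose suffix x marks probes shared with other sequences, and 0.71 ± 0.33 (adjusted p = 0.22) at the other. The class median was −0.01, with 1 of 5 genes positive (3 of 5 after median centring).

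Probe sets of 1 gene often differed in direction. Of the 22 genes with more than 1 probe set above the lowest lower quartile (4.48), 12 had changes of both signs at 18 against 2 months. The span was widest in Grm5, from −1.64 to 0.24, and in Gria4, from −0.81 to 0.91. Over all probe sets above the median level, in place of the brightest of each gene, the class median became −0.28 for NMDA receptors, 0.07 for AMPA receptors and −0.46 for GABA-B. For the gamma subunits it became 0.99, which is the median of the 2 Gabrg1 probe sets alone, since none of Gabrg3 was above that level.

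**Figure D4:**
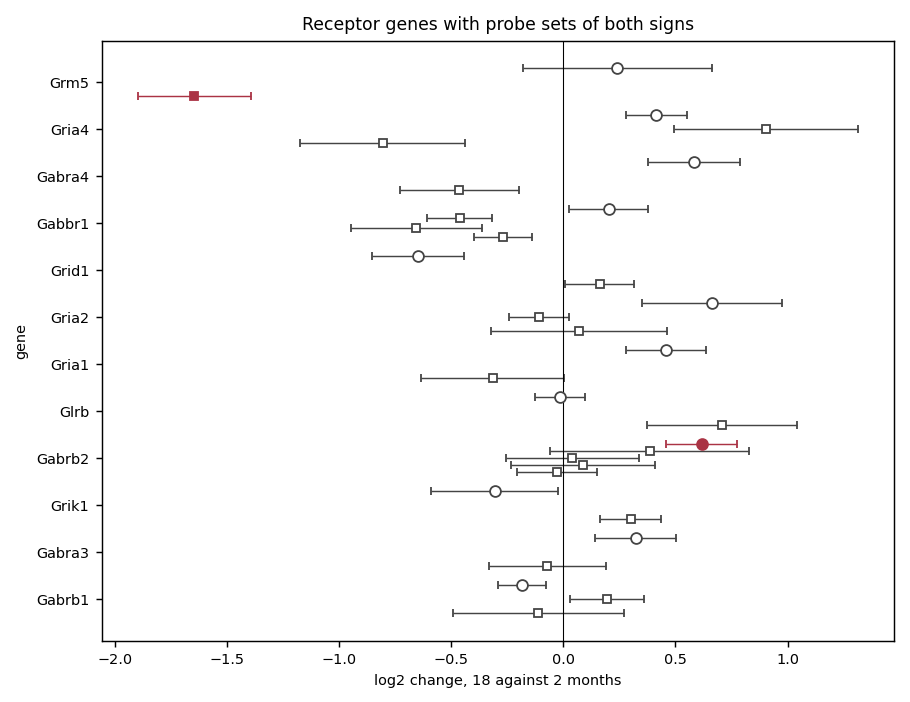
Log2 change at 18 against 2 months (x axis, bars are SE) of the probe sets of the 12 genes with changes of both signs, leaving out those below the lowest lower quartile. Circles are the brightest probe set of a gene, squares the others, and filled symbols were called, in Grm5 and Gabrb2 on 1 probe set each.

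The genes for proteins that carry and anchor these receptors, and for the enzymes and transporters of the transmitters, were listed as well. At 18 against 2 months 14.3% (auxiliary subunits), 13.6% (glutamate receptor scaffolds), 13.6% (GABA and glycine receptor scaffolds) and 7.41% (synthesis and transport) of the genes listed were called, beside 8.82% of all genes. Of 21 genes for auxiliary subunits of glutamate receptors, Cacng3, which helps AMPA receptors to the membrane, rose by 1.20 ± 0.31, while Cacng8, of the same family, fell by 0.81 ± 0.19 and Olfm1 by 0.71 ± 0.13. Of 22 genes for glutamate receptor scaffolds and trafficking, Nsf, an ATPase of membrane fusion that binds AMPA receptors, rose by 0.76 ± 0.17, while Pick1, which takes AMPA receptors inside, fell by 0.73 ± 0.14 and Dlgap2 by 0.81 ± 0.20. Of 22 genes for scaffolds and trafficking of GABA and glycine receptors, Gabarapl2, Iqsec3 and Trak2 rose, by 0.75 ± 0.21, 0.82 ± 0.17 and 0.78 ± 0.19, and none fell. Gphn, the gephyrin gene, had a change of 0.06 ± 0.11. Of 27 genes for synthesis and transport, Abat, which breaks GABA down, rose by 1.05 ± 0.15 (adjusted p = 0.0055) and was the only one called at 10 against 2 months (0.73 ± 0.15, adjusted p = 0.049), and Slc1a4 fell by 0.73 ± 0.17.

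The calls rested on few samples. At 18 against 2 months, the number of receptor probe sets called higher was 0 without array 1 of 2 months or array 4 of 18 months, 1 without array 1 or 4 of 10 months or array 2 or 3 of 18 months, 2 without array 2 of 2 months, and 7 without array 2 or 3 of 10 months. The number called lower was 1 without array 1 of 2 months or array 1, 2 or 3 of 18 months, and 5 without array 3 of 10 months.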

How the data were processed

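RNA from whole VTA of wild-type C57BL/6 mice at 2, 10 and 18 months was measured on 12 arrays, each a pool of 5 mice. Per the labels, total RNA was amplified in a protocol of 2 cycles and labelled with biotin. Normalisation by RMA was done by the authors, who deposited 1 log2 value for each probe set and array. Besides RMA, limma 3.4.5 is named in the submitters' processing notes. Of 45101 probe sets, 64 array controls were left out. Probe sets were named through the array's annotation (34945 with 1 gene, 932 with several and 9160 with none), and all 89 members matched the reference gene table by gene number.

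Arrays 3 and 4 of 2 months had a correlation of 0.998 over probe sets, against 0.967 to 0.996 in the 17 other pairs of the same age, and were averaged. The 11 samples were fitted with 1 mean per age (lmFit, contrasts.fit and eBayes of limma 3.58.1, under R 4.3.3), with Benjamini-Hochberg adjustment over 45037 probe sets. The code was tested on simulated data. The brightest probe set of a gene is the one whose mean over the samples was highest. Arrays give no read depth, and their number limits the precision.

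The text names every receptor gene with a called probe set and, in each class, the gene with the smallest p at 18 against 2 months. Other members are given by class and by range, and many of them also with their own change, for which no rule was set. The members and lists were chosen with earlier results of these data known. Alternatives were 12 separate arrays, median centring, the probe sets above the median level, no fold threshold, the 3′ to 5′ covariate, only the ages compared, the array number as a block, and leaving out each array. Promoter sequences are from RefSeq (GRCm38.p6).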

Additional observations from a re-analysis of the deposited data

Results flagged for a closer look

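Single samples stood apart from the other 3 of their age in 4 of the 32 groups of 4 samples examined at the 16 named probe sets, where the gap to the nearest sample took up most of the range of the group. Chance gives such a gap in about 1 in 20 groups. Array 2 of 18 months was low for the dimmer Grm5 probe set 1456119_at, at 5.15, and array 2 of 10 months was low for the brightest Gabrg1 probe set 1460408_at, at 9.14. Array 2 of 10 months was high for Grik3 1440177_at, at 9.81, and array 3 of 18 months was high for Gria4 1435722_at, at 10.32.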

How the results depend on the processing

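Of the counts of called receptor probe sets (4 higher and 2 lower at 18 against 2 months, 1 lower at 10 against 2 months), leaving out single arrays gave 0 to 7 higher and 1 to 5 lower at 18 months, and 0 to 3 lower at 10 months, the 3 without array 3 of 10 months (Grm5, Grid1 and Grik2) and 0 without array 1 or 2 of 2 months, array 1 or 4 of 10 months or array 4 of 18 months. With the 12 arrays separate, so that the close arrays 3 and 4 of 2 months counted as separate samples, 5 were lower at 18 months. With the 3′ to 5′ covariate, 0 were called higher and 0 lower at 18 months, and 0 lower at 10 months. With only the ages compared, 0 were lower at 10 months, and at 18 months 6 were higher and 3 lower, without Grin3a and with Glra3, Glrb, Gria4 and Grid1. The Gria4 and Glrb probe sets called there, 1440891_at and 1422504_at, were not the brightest of their genes. Without the 4 arrays on the positive side of the first component, a setting chosen after seeing the data, 8 were lower at 18 months and 0 at 10 months. With the array number as a replicate block, 2 were higher (Gabrg1 and Grm8) and 1 lower (Grm5) at 18 months, and 0 lower at 10 months; deviations of same-numbered arrays correlated at -0.61 to 0.43, over 0.1 in 4 of 12 pairs, so the numbers were not taken to pair samples. Median centring moved the calls over all probe sets at 18 against 2 months to 2528 higher and 927 lower, against 2047 and 1312, and the receptor calls to 5 and 2. Dropping the 1.3-fold threshold left 6, 1 and 0 receptor probe sets at 18 against 2, 10 against 2 and 18 against 10 months.

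At 18 against 2 months the covariate changed the sign in 21 of the 44 genes at the brightest probe set. Among the probe sets named by the rule these were Gabrb2 (-0.032 ± 0.40), Grm8 (-0.023 ± 0.74), Grik3 (0.24 ± 0.44), Gabra2 (-0.35 ± 0.50) and Gabre (0.14 ± 0.40). Also among them were Gabbr1 (-0.15 ± 0.50), Grm2 (-0.25 ± 0.39), Gabrr1 (0.21 ± 0.37) and the brightest Grm5 probe set (-1.25 ± 1.11). Gabrr1 was 0.061 without the 4 arrays. Over all probe sets above the median level the class medians were 0.069 for AMPA receptors, 0.088 for beta, 0.99 for gamma (Gabrg1 alone), -0.46 for GABA-B, -0.28 for NMDA and -0.70 for group I receptors. The causes were not tested.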
